A study of Mus musculus with 12 samples.

Results

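The 10 genes described here encode the enzymes that make serine from a glycolytic intermediate (Phgdh, Psat1 and Psph), pass its carbon to folate and between folate forms (Shmt1, Shmt2, Mthfd1, Mthfd2 and Mthfd1l) and carry its backbone into cysteine by transsulfuration (Cbs and Cth). They were chosen by name, with earlier results of these data known. Each was read on the array from a probe set annotated to that gene alone, taking the one with the highest mean over all arrays where there were several. Of the 10 genes, 9 had such a probe set, out of 17097 genes measured in this way, and all 9 were among the 12488 genes bright enough to be tested, Cth by its sphere arrays alone. Both probe sets for Mthfd2 are annotated to Gsn as well, so no value is given for it.

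The study asked how macrophages change once they have entered a tumour-like mass. TT9423, a mouse neuroblastoma line, grew into spheres on agar-coated plates, and bone marrow-derived macrophages (BMDMs) from C57BL/6 mice were added at equal cell number. RNA came from macrophages inside the spheres, freed by enzyme digestion and selected on CD11b magnetic columns, and from macrophages that had stayed outside the spheres in those cultures. Collection was at 24 h or 48 h, which gave 4 groups of 3 arrays, and every replicate pools wells of a separate experiment. All groups share the mouse strain, the tumour line and the co-culture, so there are no macrophages kept without tumour cells. The times are those of the titles, since the protocol text attached to every sample describes a co-culture of 24 h only. Whether the outside cells were also digested and column-selected is not stated in the labels.

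Serine is made by oxidation of a glycolytic intermediate (Phgdh), transfer of an amino group from glutamate (Psat1) and removal of a phosphate (Psph). Serine hydroxymethyltransferases then split it into glycine and a carbon unit bound to folate, in the cytosol (Shmt1) or the mitochondria (Shmt2), and that unit feeds purine and thymidylate synthesis and the methionine cycle. Cbs and Cth join serine to homocysteine and release cysteine, which macrophages also import and use for glutathione, and in many cell types the transcription factor ATF4 switches on several of these genes when amino acids are scarce.

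Values are log2 expression per probe set as the authors normalised them, and a difference is always spheres minus outside unless stated otherwise. Of the 14 measured macrophage markers, 13 were above the filter level on every array and Cd163, at 1.90 to 2.62, on none. Lyz2, the macrophage lysozyme, lay between 12.60 and 12.88 on all 12 arrays, and Itgam, which encodes CD11b, between 8.06 and 9.11. Several other macrophage markers differed between spheres and outside, 6 of 13 tested at 24 h and 8 at 48 h. One array differed from the rest: replicate 3 of the 48 h spheres had a mean of 4.06, and the other 11 arrays had 4.20 to 4.22. For beta-actin, the excess of the 3' over the 5' control probe set, a sign of RNA degradation, was 0.350 to 0.604 in spheres and 0.224 to 0.324 outside at 24 h, and 0.393 to 0.416 against 0.370 to 0.396 at 48 h, on the log2 scale. For Gapdh it was -0.124 to 0.425 against -0.0431 to 0.169 at 24 h, with overlap, and 0.110 to 0.146 against 0.0531 to 0.0982 at 48 h, without. The part of RNA quality in the differences below was not tested. In bulk RNA of this kind, fewer cells of a type and less RNA per cell cannot be told apart.

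At 24 h, 6 of the 9 measured genes were higher in spheres, 0 were lower, and Psph, Shmt1 and Cbs did not pass the test. A gene counts as higher or lower at a limma adjusted p under 0.05, adjusted over all tested genes. The 6 were Phgdh, Psat1, Shmt2, Mthfd1, Mthfd1l and Cth, and 4 of them (Phgdh, Psat1, Mthfd1l and Cth) were at least 1 log2 unit apart. Of all tested genes 15.8% were higher and 13.6% lower at that time. The median difference of the 9 genes was 0.96, beside -0.0068 over all tested genes. At 48 h, 8 of the 9 were higher, 0 were lower and Cbs did not pass, while 15.2% of all tested genes were higher and 22.3% lower. The median was then 0.89, beside -0.10 over all tested genes. As the genes were chosen with earlier results known, the shares of all tested genes are given for description only. Since Cth could be tested only through its bright sphere arrays, the count among the other 8 genes is 5 at 24 h and 7 at 48 h. Each of these counts rests on 1 probe set a gene, and without replicate 3 in spheres at 48 h, the array that stood apart, 7 of the 9 genes were higher at that time.

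**Figure D1:**
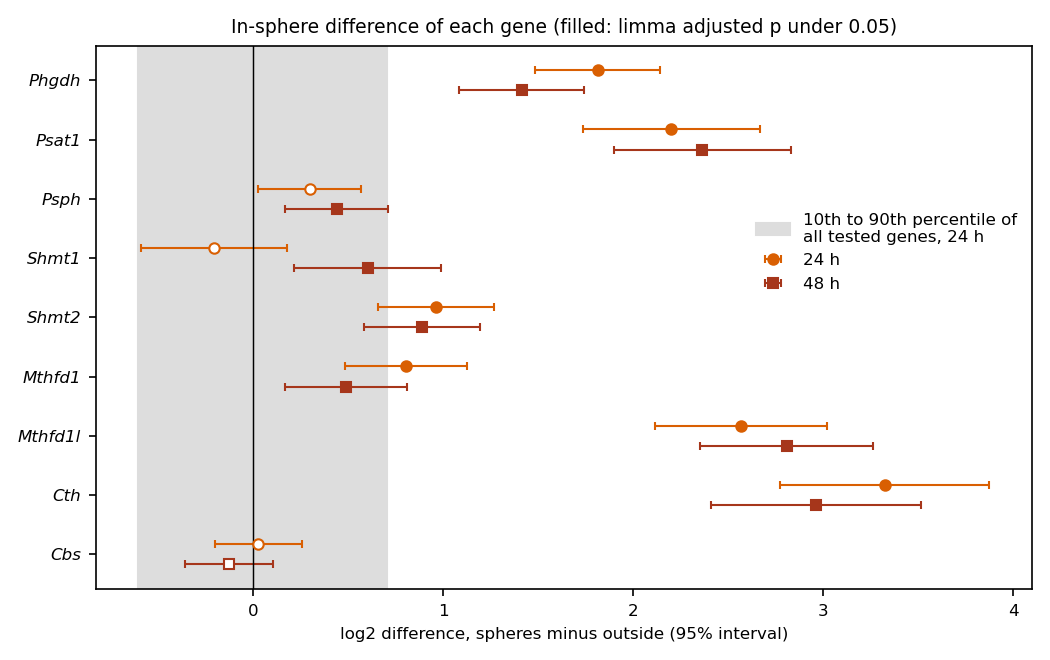
Log2 difference of each gene (spheres minus outside, horizontal axis) at 24 h (circles) and 48 h (squares), with 95% confidence intervals from limma, filled where the adjusted p is under 0.05; the grey band spans the 10th to 90th percentile of all tested genes at 24 h. Phgdh, Psat1, Mthfd1l and Cth lie to the right of the band at both times, while Psph and Cbs lie inside it (for Cth the fitted value is plotted, since its outside signal gives only a bound).

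Phgdh, the enzyme that commits glycolytic carbon to serine, was read as 7.16, 6.82 and 6.65 in spheres at 24 h and as 4.92, 5.04 and 5.22 outside. At 48 h its values were 6.66, 6.81 and 6.71 in spheres and 5.42, 5.42 and 5.09 outside. Every sphere array thus lay above every outside array. The differences were 1.81 ± 0.15 (SE, n = 3 against 3, adjusted p = 7.12e-06), or 3.52-fold, at 24 h and 1.42 ± 0.15 (adjusted p = 2.34e-05), or 2.67-fold, at 48 h. The probe set used (1426658_PM_x_at) is of the kind that can hold probes matching other sequences, and the other probe set of Phgdh (1426657_PM_s_at) gave 2.04 ± 0.21 and 1.95 ± 0.21.

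Psat1, the aminotransferase of the second step, gave 7.81, 7.25 and 6.83 in spheres and 5.00, 5.36 and 4.92 outside at 24 h. Its 48 h values were 7.14, 7.21 and 7.15 in spheres and 4.61, 5.03 and 4.77 outside. The groups were again separate at each time, and the 24 h sphere arrays were the most spread of the 4 groups. Psat1 was higher by 2.20 ± 0.21 (adjusted p = 1.96e-05), or 4.60-fold, at 24 h and by 2.37 ± 0.21 (adjusted p = 7.82e-06), or 5.15-fold, at 48 h.

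Psph, the phosphatase that ends the route, moved far less. It gave 6.49, 6.29 and 6.14 in spheres and 6.01, 6.09 and 5.93 outside at 24 h, which is a difference of 0.30 ± 0.12 (adjusted p = 0.0932) that did not pass the test. At 48 h it gave 6.48, 6.46 and 6.42 in spheres and 5.85, 6.19 and 6.01 outside, a rise of 0.44 ± 0.12 (adjusted p = 0.0151). The groups did not overlap at either time. Leaving out outside replicate 1 ended the 48 h call (adjusted p = 0.0698), while at 24 h Psph passed without sphere replicate 3 (adjusted p = 0.0479). Within each array, the log2 ratio of Phgdh to Psph was higher in spheres by 1.51 at 24 h and by 0.98 at 48 h, and that of Psat1 to Psph by 1.90 and 1.93. Each of these changes of ratio had an exact two-sided permutation p of 0.10, the smallest that 3 arrays against 3 allow.

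**Figure D2:**
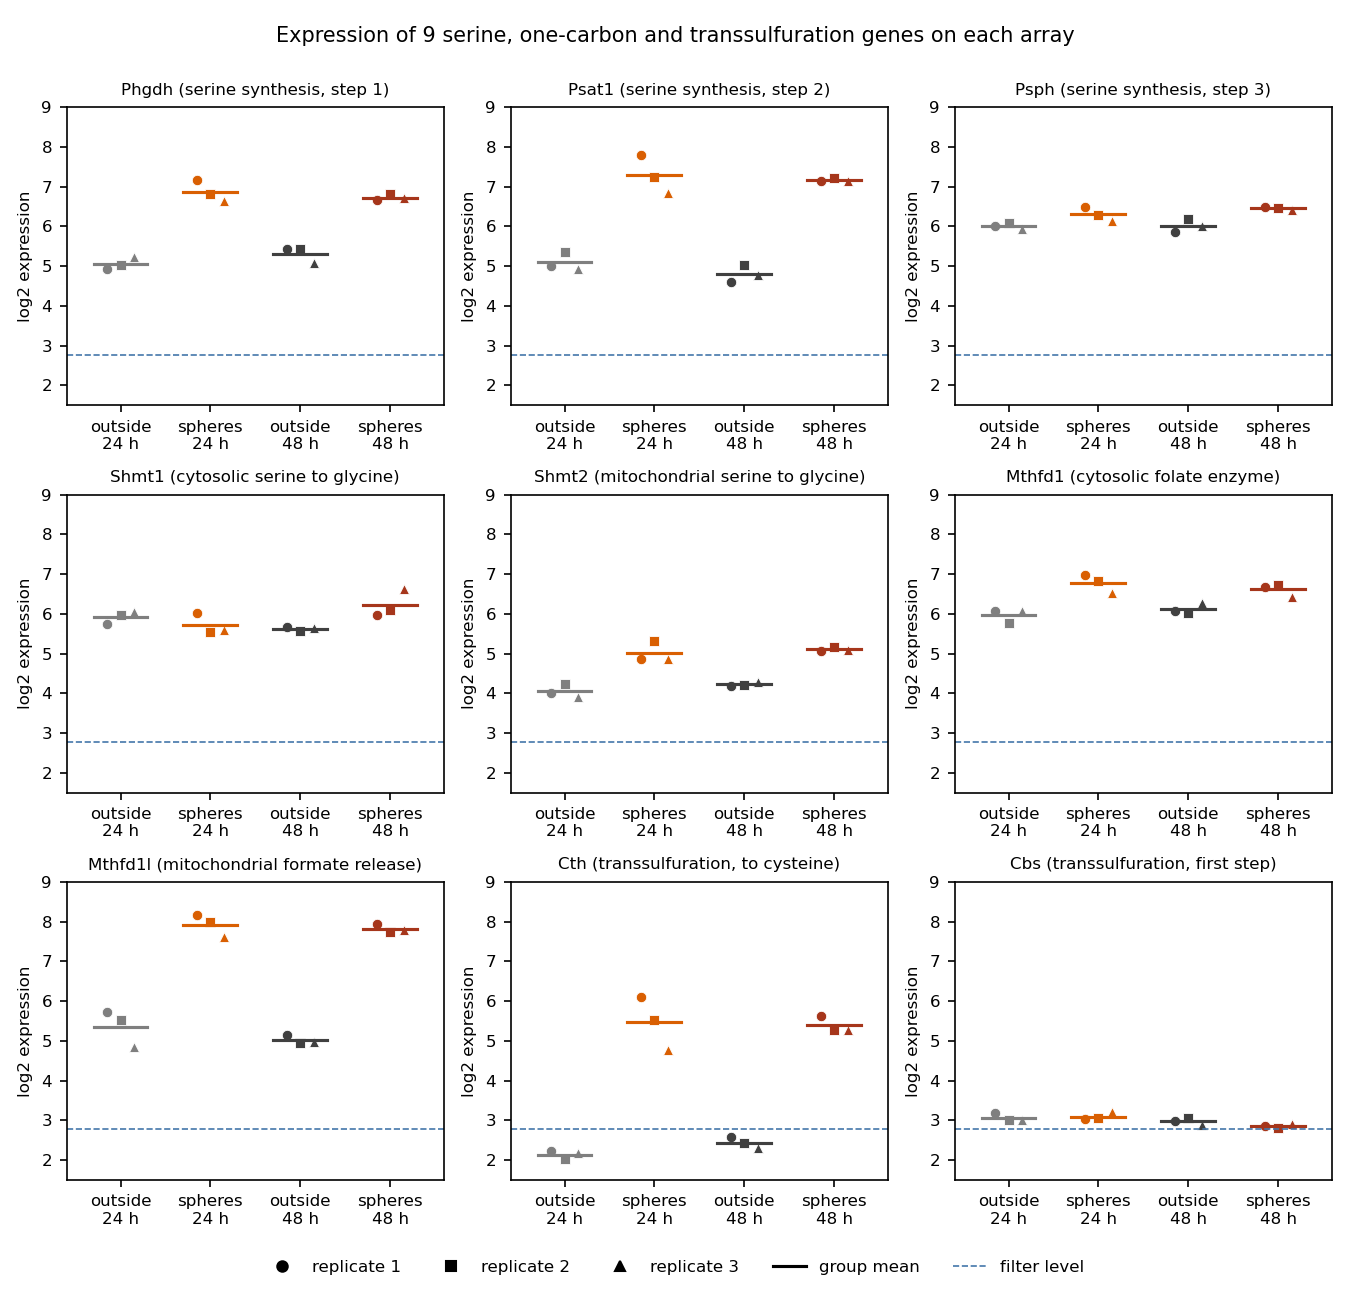
Log2 expression (vertical axis) of the 9 measured genes on each of the 12 arrays, by group; symbols mark the replicate number, bars the group means, and the dashed line the filter level of 2.77. Spheres lie above outside cells without overlap at both times for Phgdh, Psat1, Psph, Shmt2, Mthfd1, Mthfd1l and Cth, whereas Cbs stays near the filter level throughout.

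The promoters of Phgdh, Psat1 and Shmt2 are shown as examples with and without a common promoter element, chosen after their values were seen. Each line gives the 250 bases before the RefSeq start of the gene, 5′ to 3′ on the strand of the gene, with each CCAAT on that strand in capitals. The windows are chr3:98339970-98340219, chr19:15925060-15925309 and chr10:127522445-127522694 of GRCm38.p6, all on the minus strand.
Phgdh: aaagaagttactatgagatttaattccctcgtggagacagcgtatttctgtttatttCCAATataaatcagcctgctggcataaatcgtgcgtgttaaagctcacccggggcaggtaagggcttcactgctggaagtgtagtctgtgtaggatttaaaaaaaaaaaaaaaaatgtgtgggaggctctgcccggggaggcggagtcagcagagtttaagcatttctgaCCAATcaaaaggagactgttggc
Psat1: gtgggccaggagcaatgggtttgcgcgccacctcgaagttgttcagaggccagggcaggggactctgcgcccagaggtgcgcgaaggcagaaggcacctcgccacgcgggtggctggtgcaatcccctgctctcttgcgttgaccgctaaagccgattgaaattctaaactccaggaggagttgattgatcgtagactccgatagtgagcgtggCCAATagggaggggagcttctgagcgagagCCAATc
Shmt2: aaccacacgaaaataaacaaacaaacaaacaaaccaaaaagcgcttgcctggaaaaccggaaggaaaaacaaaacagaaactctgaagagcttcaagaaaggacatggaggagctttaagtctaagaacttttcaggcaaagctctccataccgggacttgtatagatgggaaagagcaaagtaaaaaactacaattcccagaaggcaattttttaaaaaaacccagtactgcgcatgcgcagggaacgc
In Phgdh the CCAAT runs begin 193 and 23 bases before the start, and in Psat1 36 and 6 bases before it. Over the RefSeq windows from 250 bases before to 50 after a start, on both strands, CCAAT was found in 37.4% of 32851 windows and in 7 of the 9 listed genes that have a window (Phgdh, Psat1, Psph, Shmt1, Mthfd1, Mthfd2 and Cbs). Mthfd1l, with wider differences than Phgdh or Psat1, has no CCAAT in its window, and Cbs, dim and not passing at either time, has it. Whether the element goes with the size of the in-sphere difference was not tested. The ATF4 composite element, searched as TGATGNAAN, was in 3.95% of all windows and in 0 of the 9 genes with a window. Those 9 include Mthfd2 but not Cth, which has no window and was not searched. The cyclic AMP core site TGACGT was in 7.51% of windows and in Psph and Mthfd1l. The E-box CACGTG was in 7.15% and in Cbs. The antioxidant element TGACNNNGC was in 12.4% and in Phgdh and Psph, where in Psph it overlaps the core site. A match, or the lack of one, describes the letters of these windows only.

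The mitochondrial serine hydroxymethyltransferase Shmt2 was higher in spheres at both times. Its values at 24 h were 4.85, 5.33 and 4.85 in spheres and 4.0, 4.22 and 3.91 outside. At 48 h they were 5.07, 5.16 and 5.09 in spheres and 4.18, 4.20 and 4.28 outside. The groups did not overlap, with differences of 0.96 ± 0.14 (adjusted p = 3.30e-04), or 1.95-fold, and 0.89 ± 0.14 (adjusted p = 3.96e-04), or 1.85-fold. A dimmer probe set of Shmt2 (1455985_PM_x_at) gave 0.42 ± 0.15 (adjusted p = 0.0636) and 0.23 ± 0.15 (adjusted p = 0.285), which did not pass, and the remaining one was too dim to test.

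For the cytosolic enzyme Shmt1 the answer depended on the probe set. The brightest one (1425177_PM_at) gave 6.02, 5.55 and 5.59 in spheres and 5.75, 5.96 and 6.05 outside at 24 h, with overlap, a difference of -0.20 ± 0.18 (adjusted p = 0.443). At 48 h it gave 5.98, 6.10 and 6.62 in spheres and 5.67, 5.56 and 5.65 outside, without overlap, a rise of 0.60 ± 0.18 (adjusted p = 0.0179), or 1.52-fold. That call was lost without sphere replicate 3 (adjusted p = 0.0629) and without outside replicate 2 (adjusted p = 0.0575). A second probe set (1425179_PM_at) separated the groups fully: 5.28, 5.17 and 4.87 in spheres against 3.38, 3.52 and 3.40 outside at 24 h. At 48 h it gave 5.19, 5.37 and 4.88 in spheres against 3.48, 3.58 and 3.42 outside. Its differences were 1.67 ± 0.15 (adjusted p = 1.23e-05) and 1.65 ± 0.15 (adjusted p = 7.46e-06). Of the other probe sets, 1425178_PM_s_at gave 0.28 ± 0.28 (adjusted p = 0.522) and 0.42 ± 0.28 (adjusted p = 0.282), and 1422198_PM_a_at gave 0.39 ± 0.20 (adjusted p = 0.175) and 0.64 ± 0.20 (adjusted p = 0.0268). With the mean of all its probe sets, Shmt1 was higher in spheres at 24 h, by 0.54. Which transcripts of Shmt1 each probe set reads was not tested.

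**Figure D3:**
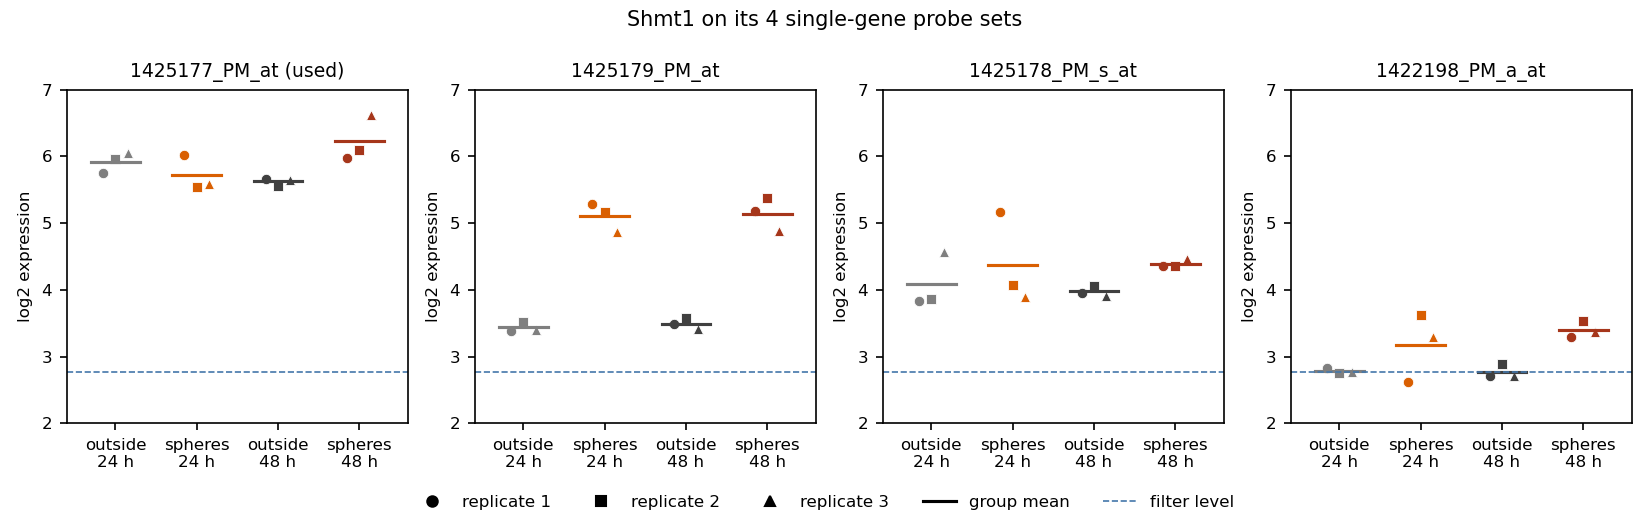
Log2 expression (vertical axis) of Shmt1 on each array by group, with a panel for each of its 4 single-gene probe sets; symbols mark replicates, bars group means and the dashed line the filter level of 2.77. Probe set 1425179_PM_at separates spheres (4.87 to 5.37) from outside cells (3.38 to 3.58), while the brightest, 1425177_PM_at, overlaps at 24 h.

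Mthfd1l, the mitochondrial enzyme that releases formate for use in the cytosol, had one of the widest separations among the 9 genes. It gave 8.18, 7.98 and 7.61 in spheres and 5.72, 5.51 and 4.84 outside at 24 h. At 48 h it gave 7.95, 7.74 and 7.79 in spheres and 5.14, 4.95 and 4.96 outside. No sphere array came within 1 log2 unit of an outside array. The differences were 2.57 ± 0.21 (adjusted p = 6.19e-06), or 5.93-fold, and 2.81 ± 0.21 (adjusted p = 2.05e-06), or 7.01-fold. They stood at the 99.4th percentile of all tested genes at each time.

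Mthfd1, the cytosolic enzyme that takes formate back up into folate, rose by less. Its 24 h values were 6.97, 6.83 and 6.53 in spheres and 6.07, 5.77 and 6.06 outside. At 48 h they were 6.68, 6.74 and 6.42 in spheres and 6.08, 6.01 and 6.27 outside. The groups did not overlap, although at 48 h the lowest sphere array (6.42) lay close to the highest outside array (6.27). From 24 h to 48 h the outside mean of Mthfd1 changed by 0.15 ± 0.15. Mthfd1 was higher by 0.81 ± 0.15 (adjusted p = 0.00149) at 24 h and by 0.49 ± 0.15 (adjusted p = 0.0199) at 48 h, and its other probe set gave 0.85 ± 0.14 and 0.65 ± 0.14. The 48 h call was lost without outside replicate 1 (adjusted p = 0.0601) or 2 (0.0735) and without sphere replicate 1 (0.0572) or 2 (0.0699). Within each array the log2 ratio of Mthfd1l to Mthfd1 was higher in spheres by 1.76 at 24 h and by 2.32 at 48 h (exact two-sided permutation p = 0.10 for each, the smallest possible). The log2 ratio of Shmt2 to Shmt1 on their chosen probe sets was higher by 1.17 at 24 h (exact p = 0.10) and by 0.28 at 48 h (exact p = 0.40). The direction of this ratio depends on the probe set, since Shmt1 on 1425179_PM_at rose by 1.67 and 1.65, more than Shmt2.

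Cth, the lyase that releases cysteine from cystathionine, was bright in spheres only. In spheres it was read as 6.10, 5.52 and 4.78 at 24 h, then as 5.63, 5.28 and 5.28 at 48 h. Outside cells gave 2.22, 2.02 and 2.18 at 24 h and 2.57, 2.42 and 2.30 at 48 h, below the filter level of 2.77 on all 6 arrays. The fitted differences were 3.32 ± 0.25 (adjusted p = 4.57e-06) and 2.96 ± 0.25 (adjusted p = 5.12e-06). Since the outside signal was not above the filter level, the size has only a bound, at least 2.69 on the log2 scale at 24 h and at least 2.62 at 48 h, and its order against Mthfd1l is not settled.

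Cbs, which makes the cystathionine that Cth cleaves, was dim everywhere. Sphere arrays gave 3.03, 3.06 and 3.20 at 24 h and outside arrays 3.18, 3.00 and 3.02. At 48 h the values were 2.85, 2.80 and 2.91 in spheres and 2.99, 3.06 and 2.89 outside. The groups overlapped at both times, with differences of 0.028 ± 0.11 (adjusted p = 0.885) and -0.13 ± 0.11 (adjusted p = 0.380), so no difference was detectable this close to the filter level. Its other probe set (1425623_PM_a_at) was too dim to test, with 2.35 to 2.91 on 11 arrays and 4.46 on replicate 3 in spheres at 48 h, the array that stood apart.

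In the main fit, which has no replicate block, changes with time were not detected in these genes, and hardly in any other gene tested. From 24 h to 48 h in spheres, 0 of 9 passed the test and 2, Shmt1 at 0.51 ± 0.18 and Cbs at -0.24 ± 0.11, had an unadjusted p under 0.05. Over all tested genes limma called 0% higher and 0% lower. Outside the spheres 0 of 9 passed and 0 had an unadjusted p under 0.05, while 0.112% of all genes were higher and 0.224% lower. When the 48 h difference was set against the 24 h difference, 0 of 9 genes passed, beside 0% of all genes higher and 0% lower, and 1 had an unadjusted p under 0.05. That gene was Shmt1, at 0.81 ± 0.25 (adjusted p = 0.230), and on its second probe set the change was -0.021. The 95% interval of this change ran from -1.14 to 0.42 for Cth and from -0.40 to 0.88 for Mthfd1l. Among the sphere arrays at 24 h, replicate 1 was the highest for 7 of the 9 genes and replicate 3 the lowest for 7. Of these arrays, replicate 3 also had the largest excess of the 3' over the 5' control probe set, 0.604 for beta-actin and 0.425 for Gapdh. Replicate 1 had 0.490 and -0.124, and replicate 2 had 0.350 and 0.1685. The part of RNA quality in this order of the arrays was not tested.

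The counts in related gene lists that follow stand beside 15.8% of all tested genes higher and 13.6% lower at 24 h, and 15.2% and 22.3% at 48 h. Other enzymes of folate handling were mixed. Of 13 tested genes, 7 were higher and 2 lower at 24 h (median difference 0.41), and 1 was higher and 3 lower at 48 h (median -0.059). Aldh1l2, the mitochondrial enzyme that oxidises formyl-folate, was read as 5.66, 5.24 and 4.84 in spheres and 2.99, 3.30 and 2.74 outside at 24 h, a rise of 2.24 ± 0.32 (adjusted p = 3.16e-04) with 2 of 3 outside arrays above the filter level. At 48 h its sphere values were 5.05, 5.08 and 3.84 and its outside values 3.95, 4.66 and 4.41, with overlap, and the difference of 0.32 ± 0.32 (adjusted p = 0.476) did not pass, but it did without sphere replicate 3 (0.73, adjusted p = 0.0495). Tyms, the thymidylate synthase that consumes a folate carbon, was higher by 1.34 ± 0.27 and 2.38 ± 0.27, and its 24 h call was lost with the mean of its probe sets (0.26, adjusted p = 0.0849). The folate receptor gene Folr2 was higher at 24 h by 1.20 ± 0.30 and stood at 0.46 ± 0.30 (adjusted p = 0.263) at 48 h. Lower at both times were Mthfs, which recovers formyl-folate (-0.71 ± 0.11 and -0.62 ± 0.11), and the folate hydrolase Ggh (-0.45 ± 0.12 and -0.40 ± 0.12), whose calls were lost without outside replicate 1 of each time (adjusted p = 0.0512 and 0.0653) and, at 48 h, with each array centred on its median (0.143). The mitochondrial folate carrier Slc25a32 stood at -0.45 ± 0.17 (adjusted p = 0.0651) at 24 h, where it passed without outside replicate 3 (0.0405) or sphere replicate 2 (0.0348), and was lower at 48 h, at -0.79 ± 0.17. Methionine synthase, Mtr, which passes the folate carbon to homocysteine, did not pass at either time (-0.30 ± 0.14 and 0.26 ± 0.14). Mthfd2l, a mitochondrial relative of Mthfd2 named after its values were seen, was higher at 24 h by 1.17 ± 0.24 and stood at 0.65 ± 0.24 (adjusted p = 0.0502) at 48 h. Of the glycine cleavage system only Gldc was measured, and it was too dim to test.

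Genes of a mixed list for cysteine and glutathione handling were mostly lower in spheres. Of 14 tested genes on it, 0 were higher and 10 lower at 24 h (median -0.87), and 0 were higher and 8 lower at 48 h (median -0.76). Not all of these genes consume cysteine, so the counts do not set use of cysteine against Cth. Gclm, the modifier subunit of the enzyme that begins glutathione synthesis, gave 9.41, 9.67 and 9.18 in spheres and 10.88, 10.97 and 10.54 outside at 24 h, a difference of -1.38 ± 0.20 (adjusted p = 3.63e-04). At 48 h its difference was -1.66 ± 0.20, and the catalytic subunit gene Gclc was lower, at -0.93 ± 0.15 and -0.83 ± 0.15. Glutathione reductase, Gsr, was lower, at -1.46 ± 0.23 and -1.48 ± 0.23. The cysteine dioxygenase Cdo1 was lower, at -1.29 ± 0.16 at 24 h and -1.21 ± 0.16 at 48 h, fitted sizes that rest on 1 and 2 of 3 sphere arrays above the filter level. The sulfurtransferase Tst was lower at 24 h (-1.21 ± 0.32, 2 of 3 sphere arrays above the filter level) and did not pass once outside replicate 2 (adjusted p = 0.0561) or sphere replicate 1 (0.0562) was left out. At 48 h 0 of 3 sphere arrays of Tst were above the filter level, so its fall has only a bound, at least 1.66 on the log2 scale (adjusted p = 6.91e-04). Slc7a11, the transporter that brings cystine into the cell, was read as 4.60, 5.17 and 4.74 in spheres and 5.78, 5.90 and 5.29 outside at 24 h. These groups did not overlap, but the difference of -0.82 ± 0.39 (adjusted p = 0.145) did not pass, although it did with the replicate number as a block (adjusted p = 0.0429). At 48 h Slc7a11 was lower, at -1.44 ± 0.39 (adjusted p = 0.0124), which did not pass once outside replicate 2 was left out (adjusted p = 0.0572).

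**Figure D4:**
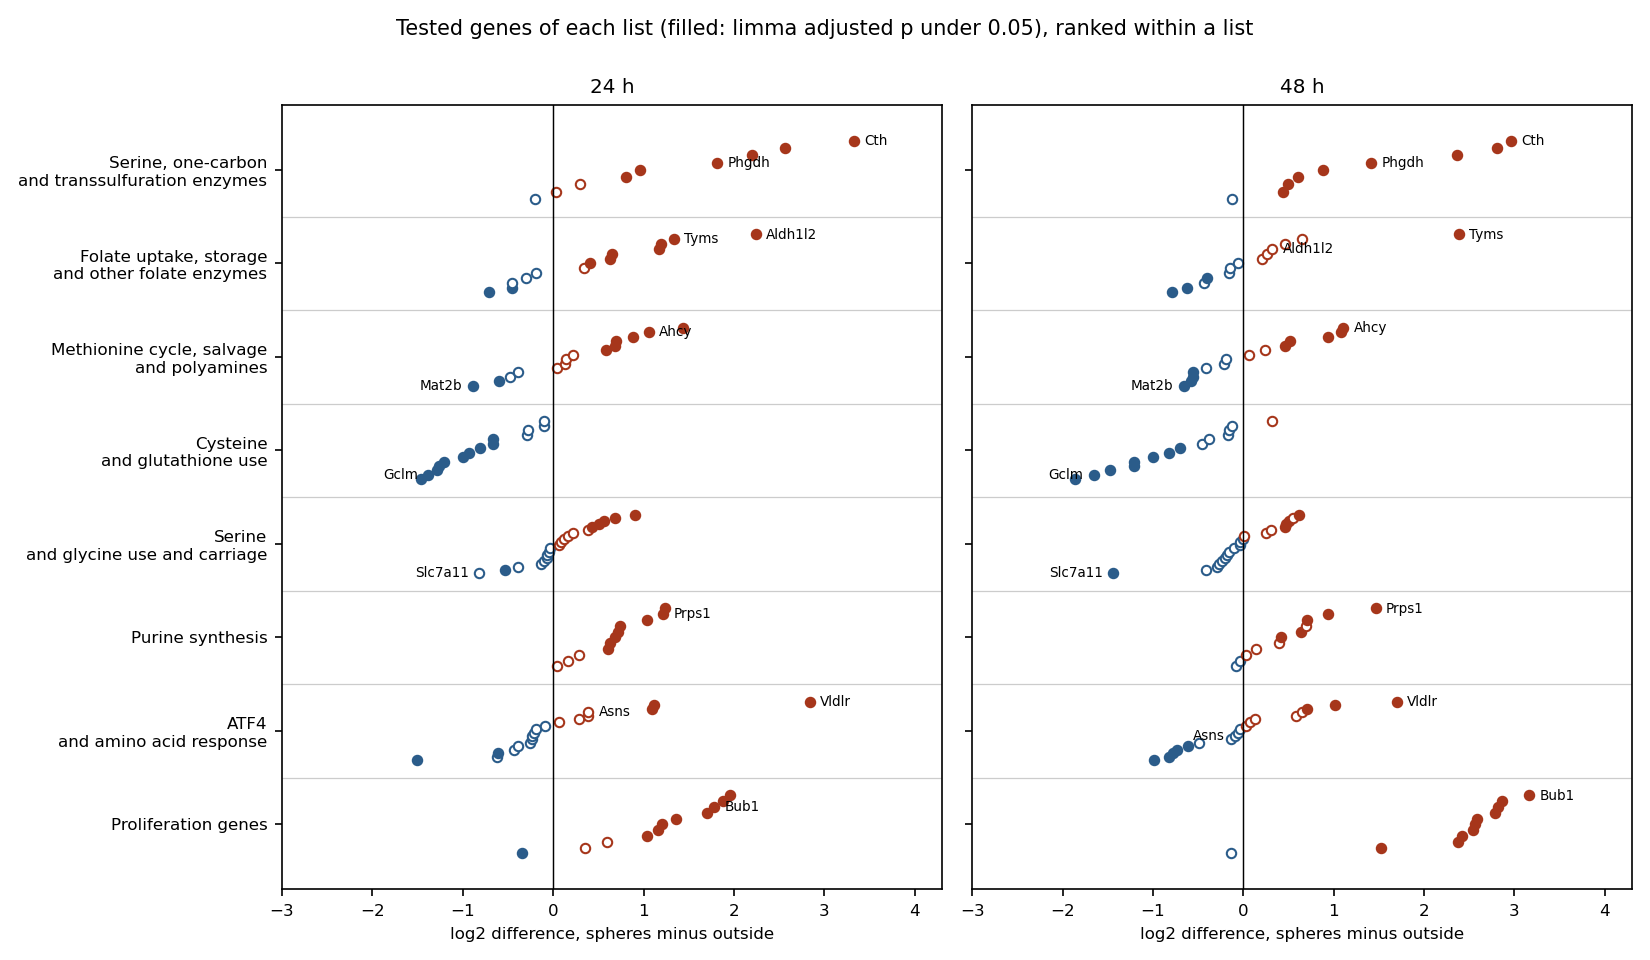
Log2 difference (spheres minus outside, horizontal axis) of every tested gene in 8 lists at 24 h (left) and 48 h (right), ranked within a list; red marks values above 0, blue values below 0, and filled circles an adjusted p under 0.05. The 14 cysteine and glutathione genes lie at or left of 0 at 24 h, and the purine synthesis genes that passed lie right of 0.

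Methionine and polyamine genes held members that moved both ways. Of 14 tested, 6 were higher and 2 lower at 24 h (median 0.18) and 5 higher and 4 lower at 48 h (median -0.067). Spermidine synthase, Srm, was higher by 1.44 ± 0.10 and 1.08 ± 0.10. Ahcy, which turns S-adenosylhomocysteine into the homocysteine that Cbs uses, was higher by 1.06 ± 0.14 and 1.10 ± 0.14. Mtap, which begins methionine salvage, was higher by 0.88 ± 0.15 and 0.93 ± 0.15. Mat2b, a regulatory subunit of the enzyme that makes S-adenosylmethionine, was lower, at -0.89 ± 0.13 and -0.66 ± 0.13, and the salvage enzyme Apip was lower, at -0.60 ± 0.15 and -0.58 ± 0.15. Adi1, another salvage enzyme, was lower at 48 h, at -0.56 ± 0.17, a call lost when each array was centred on its median (adjusted p = 0.0973) and without outside replicate 1 (0.0796) or sphere replicate 2 (0.0692).

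Purine synthesis, which takes up glycine and formyl-folate, had 8 of 11 tested genes higher and 0 lower at 24 h (median 0.69), and 5 higher and 0 lower at 48 h (median 0.42). Prps1, which makes the ribose donor, was higher by 1.22 ± 0.16 and 1.46 ± 0.16. The first committed enzyme, Ppat, was higher by 1.24 ± 0.28 at 24 h and stood at 0.70 ± 0.28 (adjusted p = 0.0658) at 48 h, where it passed without sphere replicate 3 (1.02, adjusted p = 0.00633) and with the replicate number as a block (0.0470). Pfas was higher by 1.04 ± 0.18 and 0.94 ± 0.18, and Paics by 0.74 ± 0.12 and 0.70 ± 0.12. Of 20 tested genes that carry or use serine and glycine, 5 were higher and 1 lower at 24 h (median 0.074), and 4 were higher and 1 lower at 48 h (median -0.038). The seryl-tRNA synthetase gene Sars was higher by 0.91 ± 0.13 and 0.61 ± 0.13, and the glycyl-tRNA synthetase gene Gars by 0.56 ± 0.11 and 0.51 ± 0.11. The mitochondrial carrier Sfxn3 was higher by 0.68 ± 0.16 and 0.48 ± 0.16, the second lost without outside replicate 1, 2 or 3 (adjusted p = 0.0824, 0.0833 and 0.0750) or sphere replicate 1 (0.132). Serinc3, a membrane protein of the serine incorporator family, was lower at 24 h, at -0.53 ± 0.12, and stood at 0.0095 ± 0.12 (adjusted p = 0.960) at 48 h.

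Of 18 tested genes of the ATF4 and amino acid response, 3 were higher and 2 lower at 24 h (median -0.20), and 3 higher and 5 lower at 48 h (median -0.044). These are 16.7% and 11.1% at 24 h and 16.7% and 27.8% at 48 h, near the shares of all tested genes. Atf4 itself was read as 9.76, 10.11 and 9.93 in spheres and 9.75, 10.01 and 9.83 outside at 24 h, with overlap, and its differences of 0.067 ± 0.12 (adjusted p = 0.747) and 0.078 ± 0.12 (adjusted p = 0.664) did not pass. Asns, the asparagine synthetase gene that ATF4 is known to switch on, gave 7.97, 7.57 and 7.52 in spheres and 7.49, 7.29 and 7.11 outside at 24 h. Its difference of 0.39 ± 0.15 (adjusted p = 0.0709) did not pass, although it did with the replicate number as a block (adjusted p = 0.0375), and at 48 h it was -0.092 ± 0.15. Within this list Vldlr, a lipoprotein receptor gene, was higher by a fitted 2.84 ± 0.26 at 24 h, where 1 of 3 outside arrays was above the filter level, and by 1.70 ± 0.26 at 48 h. Also higher were the translation repressor gene Eif4ebp1, by 1.12 ± 0.13 and 1.02 ± 0.13, and the stress-induced gene Nupr1, by 1.09 ± 0.17 and 0.70 ± 0.17. Cebpb, a myeloid transcription factor gene, was lower at 24 h, at -0.61 ± 0.13, and stood at -0.14 ± 0.13 (adjusted p = 0.437) at 48 h. Lower at 48 h were the transcription factor genes Atf5 (-0.99 ± 0.23) and Cebpg (-0.83 ± 0.18), which stood at -0.62 ± 0.23 (adjusted p = 0.0595) and -0.44 ± 0.18 (0.0903) at 24 h. Atf5 passed at 24 h without outside replicate 2 (adjusted p = 0.0239) or sphere replicate 1 (0.0467). The eIF2-alpha kinase genes Eif2ak2, lower at 24 h, at -1.51 ± 0.50, and Eif2ak1, lower at 48 h, at -0.78 ± 0.24, lost their calls without single arrays: outside replicates 1 and 3 and sphere replicates 1 and 3 for Eif2ak2 (adjusted p = 0.0784, 0.158, 0.166 and 0.0780) and outside replicates 1 and 3 and sphere replicates 2 and 3 for Eif2ak1 (0.0577, 0.0602, 0.0528 and 0.0849). Transcript levels of Atf4 do not report its protein, which is mainly set by translation.

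Among the other named regulators of these genes, Myc was read as 8.35, 8.80 and 8.70 in spheres and 7.83, 7.50 and 6.91 outside at 24 h. The groups were separate, and Myc, a growth-promoting transcription factor, was higher by 1.20 ± 0.22 (adjusted p = 0.00145) and 0.88 ± 0.22 (adjusted p = 0.00725). Nfe2l2, which encodes the transcription factor NRF2, was lower, at -0.53 ± 0.11 and -0.39 ± 0.11. Its 48 h call was lost with the mean of its probe sets (adjusted p = 0.0539), with centred arrays (0.246) and without outside replicate 3 (0.0537) or sphere replicates 1 or 2 (0.0570 and 0.0501). Hif1a was higher by 0.74 ± 0.12 and 0.78 ± 0.12, but not with the mean of its probe sets (adjusted p = 0.279 and 0.241). In all, 2 of these 6 regulators were higher and 1 lower at each time. Their protein was not measured, and their part in the differences of other genes was not tested.

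Proliferation genes were mostly higher in spheres as well. Of 11 tested, 8 were higher and 1 lower at 24 h (median 1.21), and 10 higher and 0 lower at 48 h (median 2.56), among them the mitotic kinase gene Bub1 (1.78 ± 0.30 and 3.16 ± 0.30). Mki67, a marker of cycling cells, differed by 0.59 ± 0.23 (adjusted p = 0.0674) at 24 h, passed there without outside replicate 2 (adjusted p = 0.0273) and with the replicate number as a block (0.0340), and was higher by 2.59 ± 0.23 at 48 h. From 24 h to 48 h outside the spheres, 0 of the 11 were higher and 3 lower, beside 0.112% and 0.224% of all tested genes. The summed log2 level of the list was 89.2 to 92.9 in spheres and 75.7 to 83.9 outside at 24 h, and 92.8 to 96.0 against 67.2 to 72.0 at 48 h. Their part in the differences of the serine and folate genes was not tested.

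Markers of other cells also moved with the comparison. Of 11 tested neural and neuroblastoma markers 2 were higher and 0 lower at 24 h, Gap43 (3.99 ± 0.30) and Ncam1 (0.99 ± 0.20). At 48 h 3 were higher and 0 lower, with Elavl4 added. Elavl4 was above the filter level on 3 of 3 sphere arrays at 48 h and on 0 arrays of the other groups. It could thus be tested only through those sphere arrays, and its 48 h difference has only a bound, at least 0.255 on the log2 scale. Summed over the 18 measured neural genes, the log2 level was 55.4 to 57.6 in spheres and 51.0 to 51.7 outside at 24 h, and 55.1 to 55.3 against 47.8 to 49.4 at 48 h. Of these 18, 9 were above the filter level on 0 sphere arrays at each time, Chga, Tubb3, Gata3, Nefl, Nefm and Alk among them on 0 of all 12 arrays. Th, the enzyme of catecholamine synthesis, lay between 2.62 and 3.23 on every array and Phox2a did not pass at either time (-0.073 ± 0.12 and -0.014 ± 0.12). Among stromal and fibroblast genes, 8 of 14 were higher and 2 lower at 24 h and 9 higher and 3 lower at 48 h, led by Loxl1 (2.99 ± 0.36 and 2.92 ± 0.36) and Col3a1 (2.64 ± 0.31 and 3.28 ± 0.31). Their summed log2 level was 77.4 to 88.3 in spheres and 64.0 to 69.8 outside at 24 h, and 83.1 to 84.7 against 63.5 to 75.6 at 48 h, and 12 of 14 at 24 h and 13 of 14 at 48 h were above the filter level on all sphere arrays. Col1a1 (-0.60 ± 0.21 and -1.23 ± 0.21) and Acta2 (-0.76 ± 0.17 and -0.83 ± 0.17) of this list were lower at both times. Fap was lower at 48 h (-0.70 ± 0.24). The 24 h call of Col1a1 was lost in 7 of 14 alternatives, and the 48 h call of Fap in 6. Of 13 granulocyte markers 0 were higher and 9 lower at 24 h and 1 higher and 9 lower at 48 h, with Camp at -2.17 ± 0.43 and -2.99 ± 0.43, and summed log2 levels of 115 to 126 in spheres against 130 to 137 outside at 24 h and 108 to 118 against 121 to 129 at 48 h. The granulocyte marker higher at 48 h was Prtn3, by 2.15 ± 0.32. Lymphocyte and endothelial markers had 0 of 8 higher and 2 lower at 24 h, and 0 higher and 1 lower at 48 h, at summed levels of 29.6 to 33.5 against 33.7 to 37.5 and 26.8 to 31.8 against 32.3 to 33.0. Macrophage markers had 2 of 13 higher and 4 lower at 24 h and 3 higher and 5 lower at 48 h. Their lower members at both times were the myeloid transcription factor gene Cebpa (-1.47 ± 0.19 and -2.31 ± 0.19), the engulfment receptor gene Mertk (-0.91 ± 0.15 and -1.25 ± 0.15) and the signalling adaptor gene Tyrobp (-0.37 ± 0.10 and -0.59 ± 0.10). Adgre1, which encodes F4/80, was lower at 24 h (-0.43 ± 0.13, a call lost without outside replicate 1 or 3 or sphere replicate 1, adjusted p = 0.0790, 0.0630 and 0.0820), and stood at -0.34 ± 0.13 (adjusted p = 0.0536) at 48 h, where it passed without sphere replicate 3 (0.0422). Cd68 (-0.75 ± 0.13) and Spi1 (-0.66 ± 0.15) were lower at 48 h, and Cd68 also passed at 24 h without outside replicate 2 (adjusted p = 0.0424) or sphere replicate 3 (0.0283). Higher at both times were Cd14 (0.54 ± 0.13 and 1.09 ± 0.13) and Mrc1 (1.08 ± 0.28 and 1.05 ± 0.28, the second lost without outside replicate 2, adjusted p = 0.0512). The part of these cells in the values of the serine, one-carbon and transsulfuration genes was not tested.

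The genes whose values over the 12 arrays were most like those of Cth were Snhg5, a host gene of small nucleolar RNAs (Pearson r = 0.996), the fibrillin gene Fbn2 (0.994) and the Wnt antagonist gene Dkk2 (0.992). For Phgdh they were Snhg5 (0.989), the pseudouridine synthase gene Dkc1 (0.987) and the chemokine receptor gene Ackr3 (0.987). For Psat1 they were Calml4 (0.994), the basement membrane collagen gene Col4a1 (0.994) and the cohesin gene Smc3 (0.993). These 12 arrays fall into sphere and outside arrays, so each correlation mostly reads the difference between those clusters, and it is given as a description. Snhg5 was higher in spheres by 1.69 ± 0.13 and 1.41 ± 0.13 and Dkc1 by 1.59 ± 0.14 and 1.61 ± 0.14. Fitted differences were wider at both times for Dkk2, Fbn2, Ackr3, Col4a1 and Calml4, and narrower for Smc3.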

How the data were processed

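The authors deposited RMA values on a log2 scale for 12 Affymetrix mouse arrays. The submitters' processing notes name Affymetrix Expression Console, version 1.1, beside RMA. RMA normalises the arrays together and compresses differences of dim probe sets, and the log base of 2 is taken from the range of the values. Of 45141 probe sets, 28898 were annotated to 1 gene symbol, 551 to several and 15692 to none. The brightest single-gene probe set on average stood for each of 17097 genes. A gene was tested if it exceeded 2.77, the 40th percentile of all values, on at least 3 arrays, which left 12488.

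The 4 group means were fitted together with limma 3.58.1 under R 4.3.3 (8 residual and 4.09 prior degrees of freedom), with 5 contrasts and Benjamini-Hochberg adjustment over the genes tested. This fit was checked on simulated data with changes planted in the 24 h spheres only and with independent noise. That check does not cover correlated replicates or an array that stands apart. Values of other probe sets come from a like fit over 20235 probe sets. The number of arrays limits the precision.

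The genes and all lists were chosen with earlier results of these data known. Besides the 10 genes, names were drawn from up to 3 called genes per list, direction and time, the defining markers of other cells, a fixed set, some of which is not reported here, and the 3 genes most like Cth, Phgdh and Psat1. Of 216 distinct list genes, 192 were measured and 174 tested. Promoters are RefSeq windows of GRCm38.p6, and 9 of the 10 genes have one, all except Cth.

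Replicate numbers come from the titles. Deviations of same-numbered arrays correlated at 0.471, 0.473 and 0.419 between outside groups, but at 0.0215, 0.120 and 0.0813 between spheres and outside at 24 h and 0.117, 0.0417 and 0.112 at 48 h, so the main fit has no block. Alternatives were the replicate block, the mean of all probe sets, no or a stricter filter, centred arrays, other variance models and weights, fewer groups, and leaving out each array.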

Additional observations from a re-analysis of the deposited data

How the results depend on the processing

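Alternatives gave 660 values of the 9 genes on the same side of the threshold, 7 that lost a call, 2 that gained one and 1 that reversed. These values span all 5 comparisons, and in the 3 other than spheres against outside 0 of 9 genes had a call to lose. Lost calls were all at 48 h: Mthfd1 in 4 of 14 settings, Shmt1 in 2 and Psph in 1. Both gains were Psph at 24 h. Direction was compared only where a fit passed the test. Some values that passed in neither fit changed sign, as Cbs did at 24 h in 5 settings. The reversal was Shmt1 at 24 h, from -0.20 to 0.54 with the mean of all probe sets, and probe set 1425179_PM_at, added after its values were seen, gave 1.67. With all arrays, 6 genes were higher at 24 h and 8 at 48 h. Leaving out an array gave counts between 6 and 7 at 24 h and between 6 and 8 at 48 h, and left 0 in the other 3 comparisons. The 71 losses and 51 gains among other named genes had causes that were not tested. With the replicate block, 6 and 8 of the 9 genes were higher at 24 h and 48 h, as without it. Over all genes, the replicate block gave 15 calls in place of 0 between times in spheres, 158 in place of 42 outside and 65 in place of 0 for the change of the difference. Centring each array gave 12, 120 and 70. Centring also moved the median of all genes at 48 h from -0.10 to 0.017, and the calls there from 1904 higher and 2781 lower to 2286 and 2163. RMA signal near the filter level limits Cbs, Elavl4, Cth outside spheres, Tst and Cdo1 in spheres, and Vldlr and Aldh1l2 outside at 24 h.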
